A study of Sus scrofa with 60 samples.

Results

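CRP, APCS, LRG1, LBP and C4A, 4 acute phase proteins of the liver and a component of complement, were followed in the liver of the pig from the fetus to the slaughter-age animal. The genes were represented by 6 of the 23999 probe sets of the Affymetrix Porcine Genome array, and by 5 of the 6765 genes to which a probe set could be assigned alone. A probe set is a group of short oligonucleotides that together read 1 transcript, and those taken were all that carry 1 of the 5 symbols as their only gene. LBP had 2 probe sets and the other genes 1 each. The genes had been chosen by their levels at these 4 stages and by their covariation among animals of a stage. Both are therefore given as a description, without a test.

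Livers came from 60 German Landrace pigs, offspring of gilts that received an adequate protein (AP) diet throughout gestation. There were 15 animals of the fetal stage, 94 days post conceptionem (dpc). Another 15 were newborns of 1 day post natum (dpn). The later stages had 14 animals (28 dpn) and 16 animals (188 dpn), and every animal was hybridised to its own array. By the methods, the animals of a stage were chosen as sib pairs, so most had a sib at the same stage. Fetuses were obtained by Caesarean section in an experiment of their own, and the pigs of the 2 later stages had been fasted overnight. The labels carry no litter, so animals were treated as independent and the spread among them includes that within litters. The fetal stage and the separate experiment cannot be told apart.

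Acute phase proteins are plasma proteins that hepatocytes secrete in larger or smaller amounts when cytokines such as interleukin 6 and interleukin 1 signal inflammation elsewhere in the body. CRP (C-reactive protein) and APCS (serum amyloid P component) are pentraxins, ring-shaped proteins that bind the surface of microbes and of damaged cells and recruit complement. LRG1 (leucine-rich alpha-2 glycoprotein 1) is a secreted glycoprotein that in mice modulates TGF-beta signalling in blood vessels. LBP (lipopolysaccharide-binding protein) carries bacterial endotoxin to CD14 and the TLR4 receptor complex. C4A encodes complement component C4, which the protease C1s cleaves and which forms, together with C2, the enzyme that cleaves C3.

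Levels are log2 of the array intensity plus 16, and ± marks the standard deviation (SD) over the animals. Differences between adjacent stages are on the same scale, later minus earlier, and there ± marks the standard error (SE) from the model fitted with limma. Levels of different probe sets are not compared, since oligonucleotides differ in how strongly they bind. The highest of the 17 Tag control probe sets, which match no pig transcript, was taken as the background of an array and averaged from 6.35 to 6.63 over the stages. All 10 hepatocyte markers were measured, with means of 15.78, 15.71, 15.28 and 15.54 from 94 dpc to 188 dpn. All arrays had been scaled to a trimmed mean of about 500, but their medians differed with stage, at 170, 149, 117 and 111 in age order. The actin control, read near either end of the message, gave a 3'-to-5' log2 ratio, higher where transcripts are shortened, of 2.29 ± 0.34, 1.76 ± 0.31, 3.54 ± 0.46 and 4.01 ± 0.45.

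**Figure D1:**
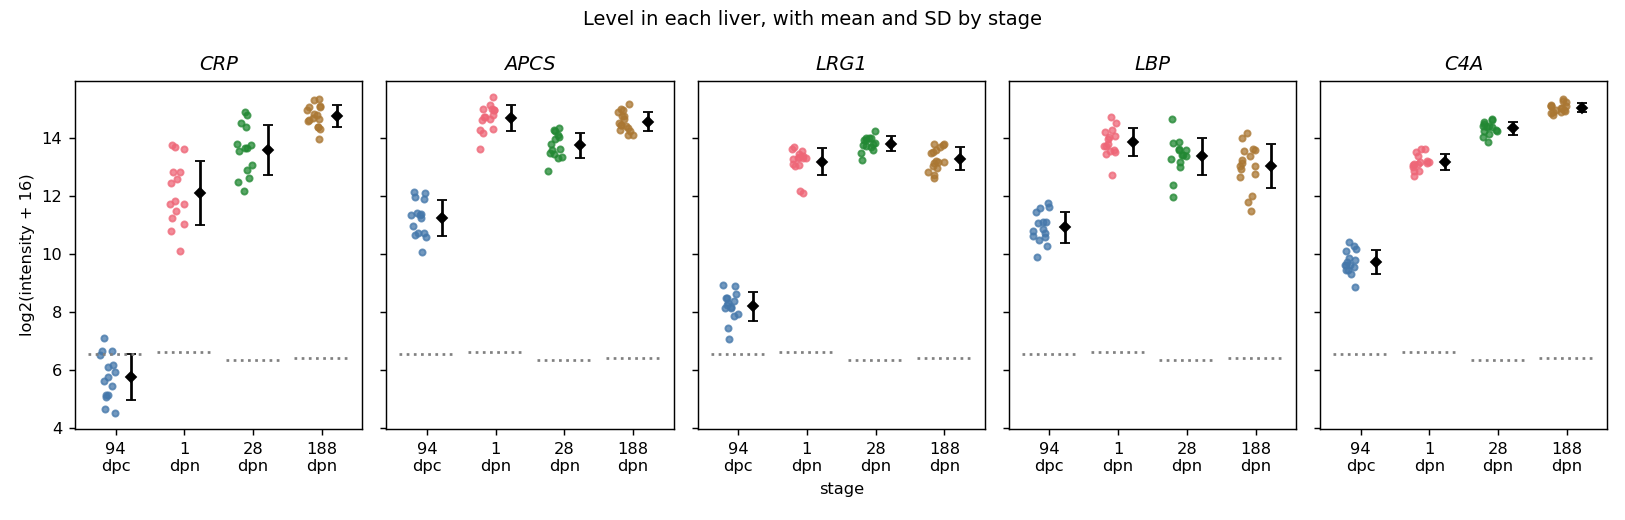
Level of CRP, APCS, LRG1, LBP and C4A in log2(intensity + 16) on the vertical axis by stage on the horizontal axis, with each point 1 liver, the diamond and bar the mean and SD, and the dotted line the mean of the highest background control. Every newborn lay above every fetus in all 5 genes, and CRP had a mean of 5.78 at 94 dpc, below the background line at 6.56.

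The comparison of 1 dpn with 94 dpc covers birth and the first feeding. All 5 genes were higher in the newborn than in the fetus, by 2.93 to 6.34 on the log2 scale, and in each of the 6 probe sets all 15 newborns lay above all 15 fetuses. Of the 12771 probe sets that passed the filter on low values, 4.46% showed such a separation in that direction. This step had been part of what singled the genes out, so nothing is read from the count. The median difference of all genes tested was -0.06.

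CRP had the largest difference of the 5. Its level in newborns ranged from 10.12 to 13.76 with a median of 11.82, against 4.52 to 7.12 with a median of 5.79 in fetuses. Only 3 of the 15 fetuses lay above the highest background control of their own array, whereas all 15 newborns did. The measured means of 12.11 ± 1.11 at 1 dpn and 5.78 ± 0.78 at 94 dpc differed by 6.34 ± 0.33, or 80.8-fold. With each fetus raised to its array's background where it lay below it, the difference was 5.45, or 43.8-fold. The measured difference changed with the constant added to the intensity before the log. It was 6.92 with a constant of 1 and 5.40 with a constant of 64, so 43.8-fold is not a lower limit. The pig annotation of RefSeq (Sscrofa11.1) places a second gene named CRP directly beside the annotated one, and whether the probe set reads both was not tested.

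APCS, the other pentraxin, was well above background already in the fetus. Newborns ranged from 13.61 to 15.42 with a median of 14.73, against 10.08 to 12.14 with a median of 11.33 in fetuses. The difference was 3.45 ± 0.19, or 11.0-fold. APCS lies close to CRP in the pig genome, with 2 annotated genes between them, and its difference was smaller than that of CRP.

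LRG1 in newborns ranged from 12.11 to 13.69 with a median of 13.30, against 7.07 to 8.93 with a median of 8.24 in fetuses. All 15 fetuses were above background, and the difference of 4.97 ± 0.17 was 31.4-fold. Among the newborns 2 stood below the rest, at 12.11 and 12.17, and the other 13 lay between 13.05 and 13.69.

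LBP, the endotoxin carrier, ranged in newborns from 12.74 to 14.71 with a median of 13.79, against 9.90 to 11.75 with a median of 10.87 in fetuses. The difference was 2.93 ± 0.18, or 7.61-fold. The second LBP probe set read far less signal, with 8.12 ± 0.46 at 1 dpn and 6.52 ± 0.46 at 94 dpc, and only 8 of 15 fetuses were above background on it. It was higher in newborns by 1.60 ± 0.16, and all 15 lay above all 15 fetuses here as well.

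C4A in newborns ranged from 12.68 to 13.64 with a median of 13.14, against 8.87 to 10.43 with a median of 9.63 in fetuses. Its difference of 3.45 ± 0.12, or 10.9-fold, was close to that of APCS. The SD among animals was 0.28 in newborns and 0.40 in fetuses.

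Whole liver was measured, so more of the cells that make a transcript and more transcript in each cell cannot be told apart. The fetal pig liver also forms blood, and 6 of 6 measured erythroid markers were called lower at 1 dpn, with a summed intensity of 1358 to 5120.3 in newborns, against 10039 to 45095 in fetuses. Summed hepatocyte markers spanned 458479 to 690199 in newborns and 432060 to 800431 in fetuses, and 1 of 10 was called higher and 1 lower. Summed macrophage markers spanned 17167 to 29082 in newborns and 12747 to 17999 in fetuses, with 5 of 8 higher and 1 lower, and all 6 measured neutrophil markers were lower. No marker of these lists was near background at either stage. The part of these cells in the differences of the 5 genes was not tested.

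**Figure D2:**
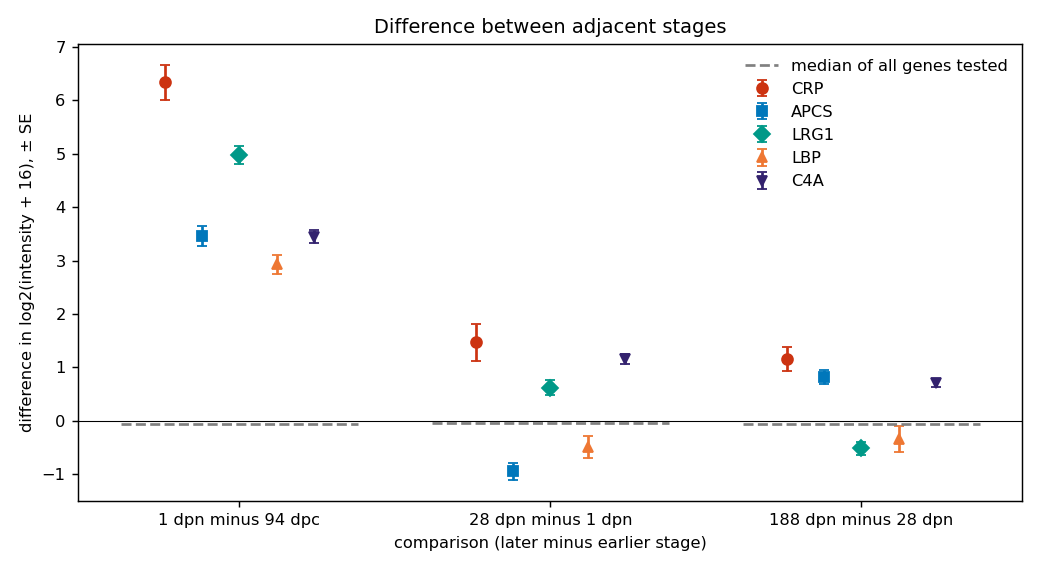
Difference between adjacent stages (later minus earlier) in log2(intensity + 16) on the vertical axis for each of the 5 genes, with bars giving the SE, and the median of all genes tested as a dashed line. The differences from 94 dpc to 1 dpn lay between 2.93 (LBP) and 6.34 (CRP), and those of the later steps between -0.95 (APCS) and 1.47 (CRP).

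From 1 to 28 dpn, the period from birth to weaning, the 5 genes no longer moved together. CRP, LRG1 and C4A were higher at 28 dpn and APCS and LBP lower. C4A was the only 1 of the 5 in which the animals did not overlap. It ranged from 13.87 to 14.65 with a median of 14.37 at 28 dpn, against 12.68 to 13.64 with a median of 13.14 at 1 dpn, a difference of 1.16 ± 0.10 or 2.24-fold. Of 12976 probe sets tested, 4.59% had every 28-day animal above every newborn.

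CRP ranged from 12.19 to 14.88 with a median of 13.66 at 28 dpn, against 10.12 to 13.76 with a median of 11.82 at 1 dpn. The difference of 1.47 ± 0.35 was 2.78-fold, and 6 of 14 animals at 28 dpn lay above all newborns. With the actin ratio as a covariate it was 0.27 ± 0.89. The actin ratio ranged from 2.85 to 4.41 at 28 dpn and from 1.14 to 2.23 at 1 dpn, so that it separates the stages and its part cannot be told apart from that of age.

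LRG1 ranged from 13.26 to 14.26 with a median of 13.81 at 28 dpn, against 12.11 to 13.69 with a median of 13.30 at 1 dpn, and 10 of 14 animals lay above all newborns. The difference was 0.62 ± 0.14. It was 0.93 after the arrays were centred on their medians, 0.45 after quantile normalization and 0.75 ± 0.37 with the actin ratio as a covariate. At 28 dpn LRG1 varied least of its 4 stages, with an SD of 0.25.

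APCS was lower at 28 dpn than at 1 dpn by 0.95 on the log2 scale (SE 0.16), or 1.93-fold. It ranged from 12.87 to 14.36 with a median of 13.71 at 28 dpn, against 13.61 to 15.42 with a median of 14.73 at 1 dpn. The stages overlapped, and 6 of 14 animals at 28 dpn lay below all newborns. The pentraxins CRP and APCS thus differed in opposite directions over this period.

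LBP ranged from 11.96 to 14.65 with a median of 13.41 at 28 dpn, against 12.74 to 14.71 with a median of 13.79 at 1 dpn. The difference of -0.49 ± 0.20 was no larger than the SD at 28 dpn (0.64), and it was -0.18 under median centring, -0.32 when the least correlated array of each stage was left out and -0.85 as the mean of both probe sets. The second probe set alone was lower by 1.20 (SE 0.23), with 10 of 14 animals below all newborns.

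From 28 to 188 dpn, CRP, APCS and C4A were higher in the older pigs and LRG1 and LBP lower. C4A again separated the stages completely. It ranged from 14.80 to 15.34 with a median of 15.03 at 188 dpn, against 13.87 to 14.65 with a median of 14.37 at 28 dpn, a difference of 0.71 ± 0.08 or 1.63-fold. Of 12568 probe sets tested, 0.485% had every animal of 188 dpn above every animal of 28 dpn.

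CRP ranged from 13.98 to 15.33 with a median of 14.73 at 188 dpn, against 12.19 to 14.88 with a median of 13.66 at 28 dpn. The difference was 1.17 ± 0.22, or 2.24-fold, and 6 of 16 animals lay above all those of 28 dpn. APCS ranged from 14.11 to 15.18 with a median of 14.49 at 188 dpn, against 12.87 to 14.36 with a median of 13.71 at 28 dpn. It was higher by 0.82 ± 0.14, or 1.77-fold, in 11 of 16 animals beyond the range of the younger pigs. Both pentraxins were thus higher at 188 dpn than at 28 dpn.

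LRG1 ranged from 12.61 to 13.81 with a median of 13.19 at 188 dpn, against 13.26 to 14.26 with a median of 13.81 at 28 dpn. It was lower by 0.52 (SE 0.12), and 9 of 16 animals lay below all those of 28 dpn. LBP ranged from 11.49 to 14.19 with a median of 13.10 at 188 dpn, against 11.96 to 14.65 with a median of 13.41 at 28 dpn. Its difference of -0.34 ± 0.24 was smaller than the SD of either stage, and it was -0.06 with the actin ratio as a covariate and -0.16 as the mean of both probe sets.

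The order of the stages therefore differed between the genes, although 94 dpc was the lowest in each. CRP and C4A were ordered by age, from 94 dpc through 1 and 28 dpn to 188 dpn. At 1 dpn CRP had reached 70.6% of its log2 difference between 188 dpn and 94 dpc, and C4A 64.9%. LRG1 was highest at 28 dpn, and its means at 188 and 1 dpn differed by only 0.10, less than the SD of either. APCS was highest at 1 dpn, above 188 dpn by less than either SD, and lower at 28 dpn. LBP was highest at 1 dpn, followed by 28 and 188 dpn, and neighbours in that order differed by about 1 SD or less. LRG1 had reached 98.0%, APCS 104% and LBP 140% of their differences between 188 dpn and 94 dpc at 1 dpn.

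The spread among animals of a stage also differed between the genes. By the methods, sibs that contrasted in weight were taken at 94 dpc and 1 dpn and pigs of intermediate growth at 28 and 188 dpn, so the early and the late stages differ in sampling as well as in age, and the part of this in the SDs and in the covariation cannot be told apart. CRP was among the most variable genes at the first 3 stages, with an SD larger than that of 98.9% of the genes expressed at 94 dpc, 99.3% at 1 dpn and 98.4% at 28 dpn. At 94 dpc this spread was mostly at the level of background. At 188 dpn its SD of 0.38 was larger than that of 74.0% of genes. LBP was wide-spread throughout, at 95.7%, 81.3%, 95.2% and 97.7% in age order. C4A went the other way, with SDs of 0.40, 0.28, 0.22 and 0.16, and at 188 dpn only 3.34% of genes had a smaller SD. The median intensity of C4A before the log was 777, 9036, 21116 and 33491 at the same stages. Its mean level reached 15.04 at 188 dpn, and whether its signal was compressed there was not tested.

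Covariation among the animals of a stage was described for the 10 pairs of the 5 genes, each by its probe set of highest mean. At 94 dpc the pairs had Pearson's r between -0.28 and 0.34, with a median of -0.05. The pairs with CRP rest there mostly on values at background, which only 3 of 15 fetuses exceeded. Without the 2 animals farthest from the median of the pair's first gene, r at 94 dpc ranged from -0.56 (APCS and LRG1) to 0.56 (CRP and LBP). At 1 dpn all 10 were positive, with a median of 0.37, and 4 exceeded 0.5. At 28 dpn 9 of 10 were positive with a median of 0.29, and at 188 dpn 8 of 10 with a median of 0.18.

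**Figure D3:**
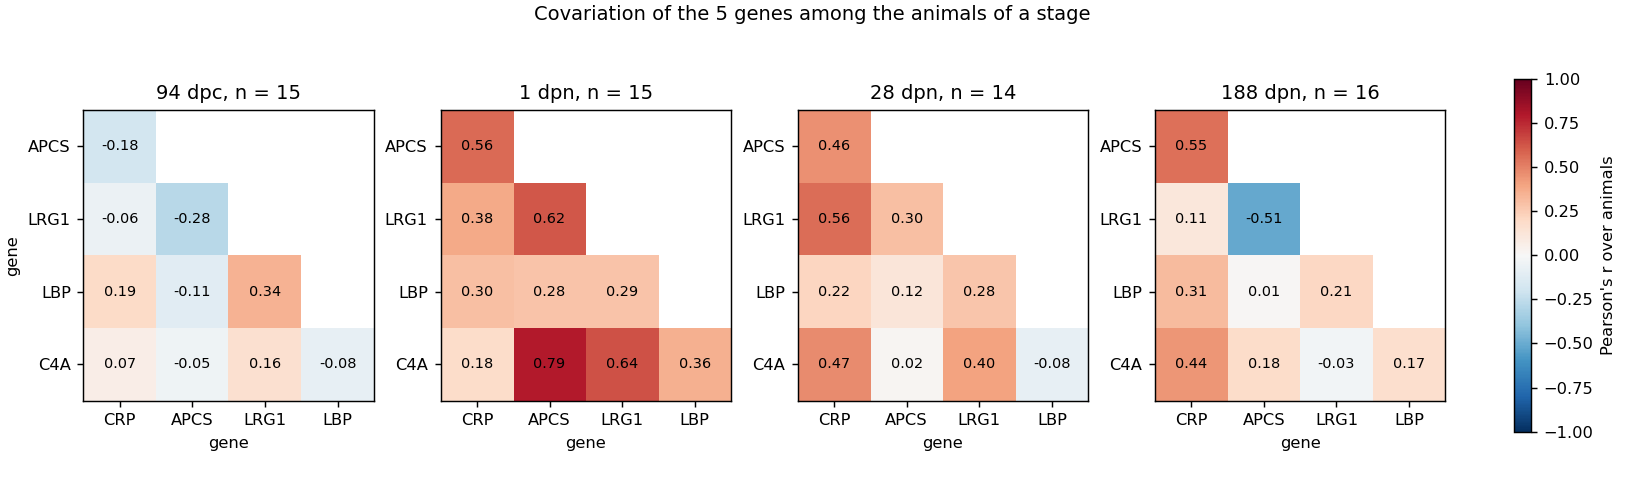
Pearson's r between each pair of the 5 genes over the animals of each stage, with red for positive and blue for negative values. At 1 dpn all 10 values were positive with APCS and C4A at 0.79, while at 94 dpc they lay between -0.28 and 0.34. CRP was mostly at background at 94 dpc.

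The pair with the highest r was APCS and C4A in newborns, at 0.79 (Spearman's rho 0.80). LRG1 followed C4A with an r of 0.64 (rho 0.80) and APCS with 0.62 (rho 0.67), and the pentraxins CRP and APCS had 0.56 (rho 0.50). CRP and C4A, the genes with the most similar order of stage means, had an r of only 0.18 among newborns. One animal weighed on these values. Newborn 11 was the lowest of the 15 in CRP at 10.12, in APCS at 13.61, in LRG1 at 12.11 and in C4A at 12.68, and was 11th of 15 in LBP at 13.57. Without it the median r of the 10 pairs was 0.29 and only 1 exceeded 0.5, APCS and C4A at 0.72, while LRG1 and APCS had 0.35. Its array had an actin ratio of 2.08 and a median of 137, within the range of the other newborns.

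**Figure D4:**
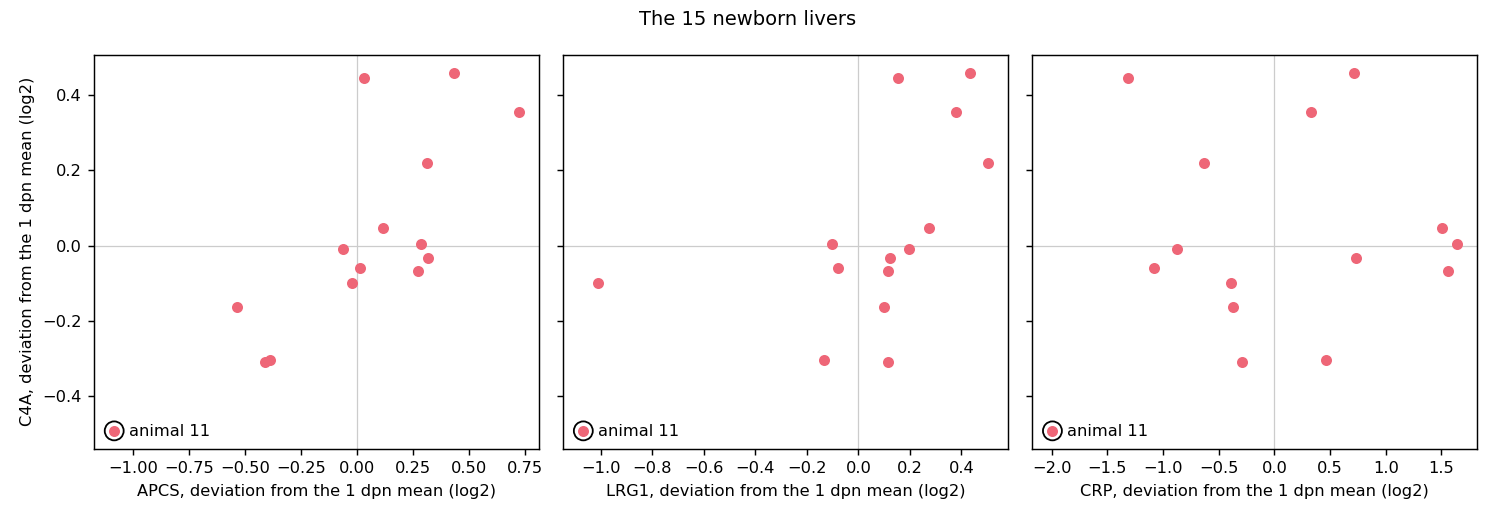
Deviation of C4A from its 1 dpn mean on the vertical axis against that of APCS, LRG1 and CRP on the horizontal axes, in log2 units, with each point 1 of the 15 newborns and a ring around newborn 11. APCS and C4A deviated together (r = 0.79, and 0.72 without newborn 11), whereas CRP and C4A had an r of 0.18.

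At 28 dpn the highest r were those of CRP, with LRG1 at 0.56 (rho 0.56), with C4A at 0.47 and with APCS at 0.46. APCS and C4A, the closest pair in newborns, had an r of 0.02. Animal 1 of this stage was the highest of 14 in CRP at 14.88, in LRG1 at 14.26 and in LBP at 14.65. At 188 dpn CRP and APCS had an r of 0.55 (rho 0.63), and animal 10 was the highest of 16 in both, at 15.33 and 15.18. LRG1 and APCS were opposed at this stage, with an r of -0.51 (rho -0.39).

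Control values and markers moved with some of these levels. Among newborns the mean of the hepatocyte markers had an r of 0.74 with C4A, 0.68 with APCS and 0.58 with LRG1, but 0.15 with CRP and 0.27 with LBP. At 188 dpn the actin ratio had an r of -0.64 with LRG1, -0.60 with LBP and 0.49 with APCS. At 28 dpn the macrophage markers had an r of 0.62 with C4A and 0.54 with CRP, and the neutrophil markers 0.65 with C4A. These are correlations over 14 to 16 animals without a test, and their part in the covariation was not tested.

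The 2 probe sets of LBP gave a measure of how well 1 gene was read by different oligonucleotides. Their r over animals was 0.78 at 1 dpn and 0.71 at 28 dpn, but 0.22 at 94 dpc and 0.35 at 188 dpn. The second probe set had a mean of 6.94 ± 0.39 at 188 dpn, with 14 of 16 animals above background. At 28 dpn only 10 of 14 animals were above background on it. Animal 13 of that stage was the lowest on both probe sets, at 11.96 on the first. On the second it had 4.71, below its array's background of 6.83. Its weight in the r of 0.71 was not tested.

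The covariation was then compared with that of other acute phase genes which had not been used to pick the 5. They were HP (haptoglobin), which binds free haemoglobin, ITIH4, known as pig major acute phase protein, ORM1 (alpha-1 acid glycoprotein), FGG (the gamma chain of fibrinogen) and SAA2 (serum amyloid A). Each was set against each of the 5 genes at each stage, which made 100 correlations, with two-sided p from 100000 permutations of the animals, adjusted together by the Benjamini-Hochberg method. The brightest of these genes, HP, ITIH4, ORM1 and FGG, had means above 15 at every stage, and whether their signals were compressed there was not tested.

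Of the 100 correlations 2 passed the adjustment, and 22 had an unadjusted p below 0.05. APCS varied with FGG among newborns, with Pearson's r = 0.82 (permutation p = 0.0001, adjusted p = 0.01) and Spearman's rho = 0.87 (permutation p = 5e-05, adjusted p = 0.005). Leaving out newborn 11 gave r = 0.83. Without the 2 animals farthest from the FGG median r was 0.81, but the correlation no longer passed (permutation test, adjusted p = 0.059). After quantile normalization of the arrays r was 0.53 and the correlation did not pass (permutation test, adjusted p = 0.321).

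C4A varied with ITIH4 at 188 dpn, with r = 0.78 (permutation p = 0.0003, adjusted p = 0.015). By rank the correlation did not pass, with rho = 0.73 (permutation p = 0.00185, adjusted p = 0.0577). Without the 2 animals farthest from the ITIH4 median r was 0.61 and no longer passed (permutation test, adjusted p = 0.278). Nor did it after quantile normalization, with r = 0.73 (permutation test, adjusted p = 0.085).

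The remaining 98 correlations did not pass. Among newborns APCS had r of 0.67 with HP, 0.60 with ITIH4 and 0.61 with ORM1, and C4A had 0.61 to 0.62 with HP, ITIH4, ORM1 and FGG (permutation test, adjusted p = 0.144 in each). The array median had an r of 0.58 with HP and 0.41 with FGG among newborns. CRP, by contrast, had r between -0.22 and 0.58 with HP, ITIH4, ORM1, FGG and SAA2 at 1 dpn, with a median of 0.18. LBP had r between 0.02 and 0.51 with them, with a median of 0.07. SAA2 had r between -0.40 and 0.096 with the 5 genes at 1 dpn. At 188 dpn it had -0.58 with APCS, which did not pass (permutation test, adjusted p = 0.15).

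The stage levels of these other acute phase genes follow. HP averaged 16.20 ± 0.26 at 1 dpn, against 15.43 ± 0.27 at 94 dpc, and rose by 0.77 ± 0.10 or 1.70-fold (adjusted p = 6.29e-08). FGG rose by 0.55 ± 0.08 (adjusted p = 7.43e-07) and ITIH4 by 0.38 ± 0.11 (adjusted p = 0.00325). ORM1, at 16.01 in newborns and 15.81 in fetuses, and SAA2, at 11.17 in newborns and 11.25 in fetuses, did not pass, with ORM1 passing under quantile normalization (difference 0.23, adjusted p = 0.000202) and under median centring (0.37). The difference of SAA2 from fetus to newborn was -0.08 ± 0.11, and changed sign, to 0.091 under median centring and 0.0099 with the actin covariate.

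In a wider list of genes whose products increase in inflammation, 17 of 27 were on the array, and 16 passed the filter. Of these, 8 rose and 2 fell at 1 dpn against 94 dpc, with a median difference of 0.29. Among all 5206 genes tested 29.8% were called higher and 35.6% lower. The largest rises were those of MBL2 (mannose-binding lectin, which starts complement on microbial sugars), at 8.71 ± 0.93 in newborns against 6.03 ± 0.79, a level of background, in fetuses, of HPX (haemopexin, which binds haem) by 1.39, of C4BPA, the alpha chain of the C4b-binding protein, by 1.36, and of HP. ITIH3 fell by 0.50 and A2M by 0.25, A2M not under quantile normalization (-0.0031), median centring (-0.08) or the actin covariate (-0.12).

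Of 9 measured genes whose products decrease in inflammation, 5 fell and 2 rose over the same step, with a median of -0.22. SERPINA6, the cortisol-binding globulin, fell by 1.91 and ITIH2 by 1.15, TTR (transthyretin) by 0.54 and GC (vitamin D-binding protein) by 0.27, whereas ALB (albumin) rose by 0.35 and AHSG by 0.24. GC did not pass under median centring (-0.10, adjusted p = 0.366) or with the actin covariate (-0.22, adjusted p = 0.15). AHSG had the same difference of 0.24 without the filter, where more probe sets entered the adjustment, and an adjusted p of 0.0623.

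From 1 to 28 dpn, 2 of the 16 genes of the first list rose and 10 fell, with a median of -0.41, where 32.2% of all 5335 genes were called higher and 35.7% lower. HAMP (hepcidin, the hormone of iron balance) fell by 3.73 on the log2 scale (SE 0.80, adjusted p = 0.000139), with an SD of 2.90 at 28 dpn, but had a difference of 0.78 in the other direction with the actin covariate, which did not pass (adjusted p = 0.8). ITIH4 fell by 0.80, ORM1 by 0.74, HP by 0.73, SAA2 by 0.70 and FGG by 0.46. MBL2 rose by 2.89 and C4BPA by 1.82. In the second list 6 of 9 fell and 2 rose. ALB fell by 0.79, AHSG by 0.75, TF (transferrin) by 0.74 and APOA1 by 0.39, though APOA1 had a difference of 0.20 in the other direction under quantile normalization, while ITIH2 rose by 0.56 and SERPINA6 by 0.79. With the actin covariate neither passed, ITIH2 at 0.16 (adjusted p = 0.667) and SERPINA6 at -0.36 (adjusted p = 0.799). SERPINA6 also did not pass under quantile normalization (0.67), without the least correlated arrays (0.63) or without the filter (0.79), with adjusted p of 0.0788, 0.111 and 0.0622.

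Quantile normalization or median centring changed the balance of the first list over this period to 6 higher and 6 lower, and FGG then did not pass. The hepatocyte markers fell in 9 of 10, with a median of -0.39, but in only 3 (with 2 higher) under quantile normalization and 4 (with 1 higher) under median centring. APCS was lower at 28 dpn under each of these settings, and CRP, LRG1 and C4A higher. LBP differed by -0.69 (SE 0.21) under quantile normalization. Under median centring its difference of -0.18 (SE 0.21) was smaller than the SE.

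From 28 to 188 dpn, 10 of the 16 genes rose and 2 fell, with a median of 0.26, where 17.5% of all 5255 genes were called higher and 28.3% lower. HAMP rose by 4.56 ± 0.72, SERPINA1 (alpha-1 antitrypsin) by 0.38, HPX by 0.37 and C3 by 0.35. VNN1 fell by 1.45 and SAA2 by 0.46, and VNN1 did not pass with the actin covariate (-0.91, adjusted p = 0.0603). ITIH4 rose by 0.35, HP by 0.29, FGG by 0.26 and ORM1 by 0.22. Of the second list 8 of 9 rose and none fell, among them SERPINA6 by 1.86, TF and AHSG by 0.36 each and ALB by 0.31. The hepatocyte markers rose in 8 of 10, with a median of 0.30, but in only 1 (with 2 lower) after quantile normalization and in 3 with the actin covariate.

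Most of these small rises from 28 to 188 dpn were lost after quantile normalization but not under median centring. After quantile normalization 2 genes of the first list rose and 5 fell, and 1 of the second rose. There HP (-0.010), ORM1 (-0.11), FGG (-0.036) and ALB (-0.014) changed sign without passing the test. Under median centring 11 genes of the first list and 9 of the second rose, and 9 hepatocyte markers. With the actin covariate 6 of the first list and 3 of the second rose, and HP (0.17), ORM1 (0.10), FGG (0.15) and ALB (0.19) did not pass. ORM1 did not pass without the filter either (0.22, adjusted p = 0.0722). CRP, APCS and C4A were still higher at 188 dpn after quantile normalization, by 1.07, 0.71 and 0.60.

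Genes of the signalling to acute phase genes were counted next, a list that also holds the inhibitor NFKBIA and the transcription factor HNF4A. The counts are therefore not a measure of how active the signalling was. Of 22 listed 13 were on the array and 10 passed the filter at 94 dpc and 1 dpn. In newborns 7 of them rose and 1 fell (median difference 0.49), where 29.8% of all genes were called higher and 35.6% lower. STAT3, the transcription factor that interleukin 6 activates, had 11.68 ± 0.26 at 1 dpn, against 10.04 ± 0.13 at 94 dpc, and rose by 1.64 ± 0.08 or 3.13-fold (adjusted p = 2.13e-17). The C/EBP factors, which bind acute phase promoters, rose as well, CEBPD by 1.43, CEBPB by 0.83 and CEBPA by 0.61, the last not with the actin covariate (0.35, adjusted p = 0.12). JAK2, a kinase of cytokine receptors, fell by 0.59. From 1 to 28 dpn 5 of 9 rose, where 32.2% of all genes were called higher. They were led by NFKBIA, the inhibitor of NF-kappaB, by 1.40 and CEBPD by 1.18, followed by HNF4A by 0.79 and TNFRSF1A by 0.65. With the actin covariate, which separates these stages, CEBPD (0.62, adjusted p = 0.312) and TNFRSF1A (0.50, adjusted p = 0.166) did not pass. From 28 to 188 dpn CEBPB rose by 0.90, STAT3 by 0.52 and CEBPD by 0.51, and CEBPA fell by 0.36, which did not pass under quantile normalization (-0.26, adjusted p = 0.0575) or with the actin covariate (-0.24, adjusted p = 0.123). IL6R, SOCS3 and NFKB1 did not pass the filter in any comparison.

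LBP was set beside genes for the recognition of bacterial products and the signalling that follows, of which 7 of 10 were measured. At 1 dpn 4 rose and none fell, with a median of 0.26, where 29.8% of all genes were called higher and 35.6% lower. CD14, the receptor to which LBP delivers endotoxin, had 12.69 ± 0.26 at 1 dpn, against 11.00 ± 0.16 at 94 dpc, and rose by 1.70 ± 0.09 or 3.24-fold (adjusted p = 2.84e-17). TLR2 rose by 1.23, LY96 (the MD-2 partner of TLR4) by 0.42 and IRAK1 by 0.26, and LY96 did not pass with the actin covariate (0.26, adjusted p = 0.0681). TLR4 itself had 8.17 at 1 dpn and 8.29 at 94 dpc. CD14 is also a macrophage marker.

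From 1 to 28 dpn LY96 rose by 0.59, TLR2 by 0.50 and IRAK1 by 0.40, while MYD88 fell by 0.83 and BPI by 0.59. With the actin covariate none of these passed, although the differences of IRAK1 (0.44), LY96 (0.53) and MYD88 (-0.65) were about as large, whereas those of TLR2 (0.29) and BPI (-0.088) were smaller. BPI also did not pass under quantile normalization (-0.30), median centring (-0.27) or without the filter (-0.59), with adjusted p of 0.289, 0.337 and 0.0638. From 28 to 188 dpn TLR2 fell by 0.75, TLR4 by 0.58 and LY96 by 0.49, and none rose. Over the same step 6 of 8 macrophage markers fell and none rose, with summed intensities of 25601 to 42849 at 188 dpn and 35614 to 63038 at 28 dpn, and MARCO was near background at 188 dpn. The difference of LBP over this step was -0.34 ± 0.24.

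C4A was set beside the classical and terminal complement genes, of which 15 of 21 were measured. At 1 dpn 13 of 15 rose against 94 dpc and none fell, with a median of 0.85, and in 4 of them all newborns lay above all fetuses. Of all genes tested 29.8% were called higher and 35.6% lower, and 4.46% of probe sets had all newborns above all fetuses. C2, the partner of C4 in the C3-cleaving enzyme, had 10.39 ± 0.44 at 1 dpn, against 7.27 ± 0.71 at 94 dpc, and rose by 3.11 ± 0.21 or 8.66-fold (adjusted p = 2.04e-14). C1R, whose protease activates C1s, rose by 2.35 ± 0.17 (adjusted p = 1.35e-13) and C1S by 1.59 ± 0.16 (adjusted p = 1.67e-10). C8G, a chain of the membrane attack complex, rose by 1.80 ± 0.12 (adjusted p = 1.62e-14). The genes that did not pass were SERPING1, the inhibitor of C1, at 14.65 in newborns and 14.71 in fetuses, and C1QC, a chain of the recognition protein C1q made by macrophages, at 12.93 in newborns and 12.89 in fetuses. C4A differed by 3.45 ± 0.12 over this step.

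From 1 to 28 dpn 12 of 15 rose and 2 fell. The median difference was 0.95, and in 7 genes the animals did not overlap. Of all genes tested 32.2% were called higher and 35.7% lower, and 4.59% of probe sets had all animals of 28 dpn above all newborns. C8G rose by 2.00, C4BPA by 1.82, C2 by 1.63 and C1QC by 1.60. C4A, with 1.16, was within the range of these genes and close to C1R, which rose by 1.21. C5 fell by 0.81 and C3, the substrate of the enzyme that C4 forms, by 0.35. C3 did not pass under quantile normalization (-0.0052) or median centring (-0.035), and C5 not with the actin covariate (-1.19, adjusted p = 0.0634). With the actin covariate 7 of the genes were called higher. Over the same step 5 of 8 macrophage markers rose and 1 fell, with summed intensities of 35614 to 63038 at 28 dpn and 17167 to 29082 at 1 dpn, and the part of these cells in the complement genes was not tested.

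From 28 to 188 dpn 6 of 15 rose and 2 fell, with a median of 0.17, where 17.5% of all genes were called higher and 28.3% lower. C3 and SERPING1 rose by 0.35 each, C1R by 0.33 and C1S by 0.27, and C1QA fell by 0.79 and C1QC by 0.36. C1QA and C1QC are themselves in the list of macrophage markers, of which 6 of 8 fell over this step. After quantile normalization none of the 15 was called higher, and C1S changed sign (-0.037). The difference of C4A was 0.71 ± 0.08, and 0.60 after quantile normalization.

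**Figure D5:**
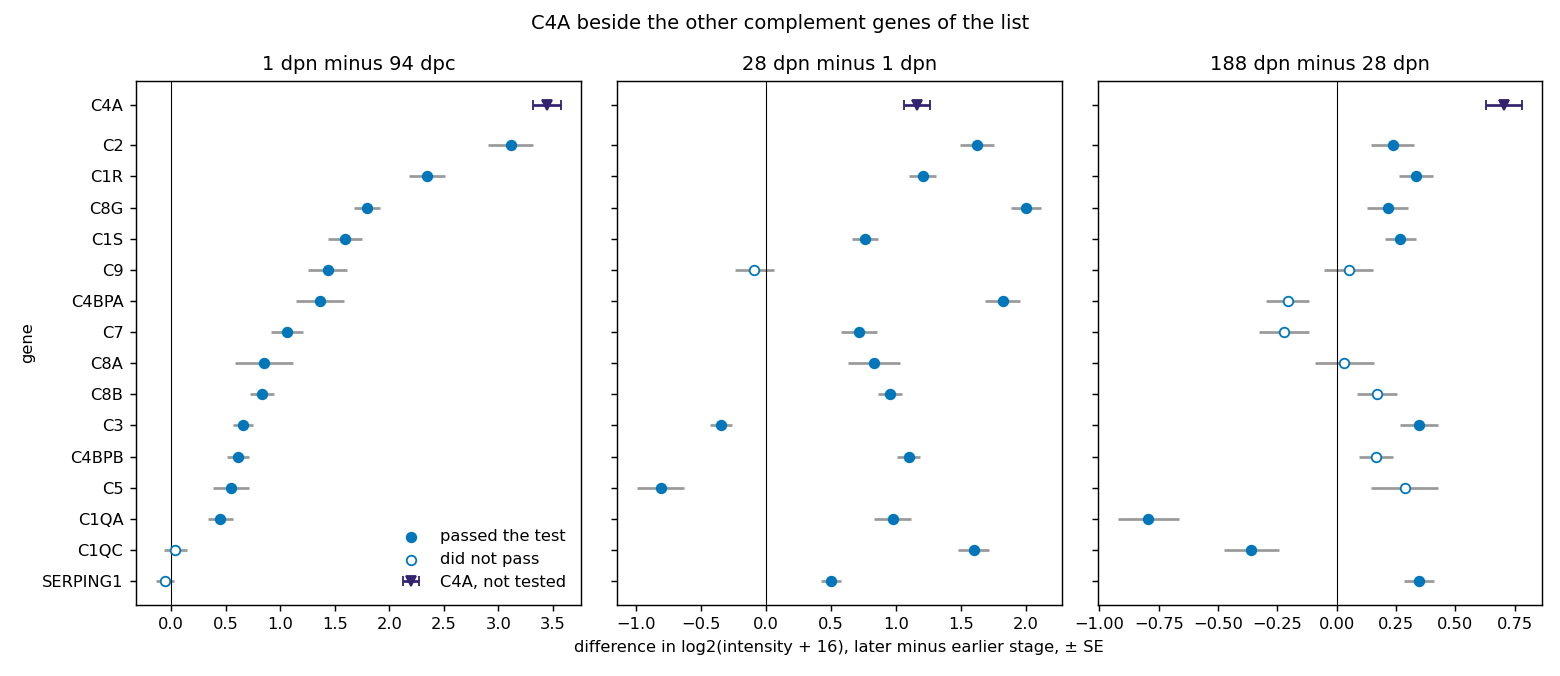
Difference between adjacent stages in log2(intensity + 16) on the horizontal axes for C4A (triangle) and the 15 other complement genes (circles, filled where the gene passed the test), with bars giving the SE. C4A differed by 3.45, 1.16 and 0.71, and C2 by 3.11, 1.63 and 0.24.

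Finally, the genes most like each of the 5 were listed by Pearson's r with 5491 genes. This was done once over the levels on all 60 arrays, which mostly follows the stage means, and once over the deviations from the stage means. The lists give the highest of these values and were not tested, and the highest of so many can be large among unrelated genes. Over the levels, the gene most like CRP was C4A, at r = 0.971, followed by AZGP1, HSD11B1, C2H19orf70 and C2H19orf24. C4A was most like ETFB (0.980) and C1R (0.980), then SOD1, HSD11B1 and HOPX, and CRP was 8th. For LRG1 the 5 were AZGP1 (0.957), ST6GAL1, SULT2A1, GLRX and HSD11B1. For APCS they were COX5B (0.924), SULT1E1, LOC396684, MAP1LC3B and CYP2C33, and for LBP DAD1 (0.886), SURF4, HOMER2, GK and PDIA4. HSD11B1, which regenerates cortisol in the liver, was in 3 of the 5 lists.

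Within stages the likeness was lower and named other genes. C4A deviated most closely with C3 (r = 0.598), LOC396684, C1R (0.543), TNFRSF1A and HP (0.517). C4A and C1R, both of the classical pathway, had r of 0.48, 0.71, 0.66 and 0.55 from 94 dpc to 188 dpn, and C4A and C3 had 0.60, 0.82, 0.52 and 0.48. APCS was most like TMEM208 (0.556), AMBP, ACVR1B, HSD11B1 and MRPL48. LBP was most like DIO1 (0.560), PLPPR5, PGK1, LMAN2 and SURF4. LRG1 was most like BBX (0.558), CD247, UBE4A, DEFB1 and UBE3D.

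CRP deviated most closely with AGPAT3 (r = 0.619), EGFLAM, STEAP4, DAD1 and SKIV2L. The r of CRP with AGPAT3 was 0.84 at 1 dpn and 0.83 at 28 dpn, but 0.13 at 94 dpc, where CRP was at background, and 0.28 at 188 dpn. None of the other 4 genes was among the first 5 of CRP within stages, and APCS stood 258th at an r of 0.279.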

How the data were processed

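The authors deposited 1 linear intensity for each probe set and array, read here as the signal of the Affymetrix software (GCOS 1.1.1 per the submitters' processing notes) and scaled to a trimmed mean of about 500. Of 24123 probe sets, 124 were controls. Intensities were raised by 16 and taken to log2. Adjacent stages were compared with limma 3.58.1 in R 4.3.3 on probe sets above the array median in at least 50% of the animals of 1 of the stages, with Benjamini-Hochberg adjustment over all of them and a threshold of 0.05. The step was tested on simulated data. The probe set with the highest mean represented a gene. Symbols came from the platform annotation, which lists 1 gene for 10069 probe sets, and 9961 of their gene IDs matched RefSeq (Sscrofa11.1). No coordinates are given. The study's own model held sex, mother and weight, which the labels do not carry.

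The 5 genes and the lists were chosen with earlier results of these data known. Genes are named from a list by the size of their difference, at most 4 called the way most were and at most 2 called the opposite way in each comparison. HP, ITIH4, ORM1, FGG and SAA2 are named throughout, as are the 5 genes most like each of the 5. C3 and C4BPA are in the acute phase and the complement lists, and CD14, C1QA and C1QC are also macrophage markers. SERPINA1 of the genes rising in inflammation is also a hepatocyte marker, as are ALB, TTR, TF and APOA1 of those falling. The counts of the acute phase lists and of the hepatocyte markers therefore share genes and are not independent. Alternatives were pseudocounts of 1 and 64, quantile normalization, median centring, no filter, the actin ratio as a covariate, the mean of all probe sets, and the omission of arrays or animals. The number of arrays limits the precision. The p-values measure the spread among animals that were chosen as sib pairs but treated as independent, so they can be too small.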

Additional observations from a re-analysis of the deposited data

How the results depend on the processing

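Of 103 alternative values for the differences of the 5 genes between stages, 100 lay within 1 SD of the value reported, and none changed sign. The SD here is that among animals, pooled over the 2 stages, and is a wide measure. The exceptions were CRP from 1 to 28 dpn with the actin ratio as a covariate (0.27), C4A over the same step under median centring (1.48), and LBP from 94 dpc to 1 dpn as the mean of both probe sets (2.26). For LBP at the 2 later steps this SD was larger than the difference itself. Values of -0.18 in place of -0.49 and -0.06 in place of -0.34 therefore lay within it. The median r of the 10 pairs at 94 dpc was 0.15, in place of -0.05, when 2 animals were left out of each pair. These were the 2 farthest from the median of the pair's first gene, so the animals left out differed between pairs. The cause was not tested.

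The number of probe sets called from 1 to 28 dpn was 3697 higher and 5065 lower. Median centring gave 5929 higher and 3066 lower, and it moves the median of all genes to 0.28. The actin covariate gave 1366 higher and 1707 lower. At 1 dpn 1 correlation with another acute phase gene passed, none after quantile normalization or without the 2 farthest animals, and 2 on residuals from the actin ratio. At 188 dpn 1 passed, and 0 under the same pair of settings. Over all stages 2 passed, and 0 under those settings. Leaving out newborn 11, chosen after seeing the data, kept both.

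Median centring shifted the median of all genes from 94 dpc to 1 dpn to 0.11. Of 581 alternative values of named genes, 50 no longer passed, 7 of them with a change of sign, and 2 newly passed. In all 10 changed sign, namely HAMP at 0.78, APOA1 at 0.20, SERPINA6 at -0.36, ALB at -0.014, C1S at -0.037, HP at -0.010, ORM1 at -0.11, FGG at -0.036 and SAA2 at 0.091 and 0.0099. No paired analysis was possible because the replicate numbers were given in accession order and no label ties an animal of 1 stage to that of another.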
